A study of Mus musculus with 9 samples.

Results

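The 37 genes described here are protein-coding genes of DNA repair and of the signalling that calls it, chosen by symbol from the 49671 genes counted in each library. They comprise 4 damage checkpoint kinases, 13 genes of homologous recombination, 5 of the Fanconi anemia pathway, 2 of mismatch repair, 5 of end joining, 2 of single-strand break repair, 5 of nucleotide excision repair and 1 translesion polymerase. All 37 were found and all 37 passed the filter on low counts. RNA was sequenced from cells of the mouse melanocyte lineage, sorted from the dermis of body skin as KIT+CD45- cells, where KIT is the receptor that marks these cells and CD45 marks blood cells. The 3 melanoblast libraries came from pups at postnatal day 0.5, the 4 adult libraries from skin in telogen, the resting stage of the hair cycle, at 8 to 10 weeks, and the 2 aged libraries from telogen skin at 24 months. The telogen cells are called melanocyte stem cells (McSC) after their labels. All mice were female C57BL/6 animals that the labels describe without any engineered allele or treatment. The pups and young adults descended from C57BL/6J stock kept by the submitters, whereas the aged mice were obtained at 21 months from the aged colony of the National Institute on Aging, so that age and colony cannot be told apart. Each library is a pool of cells of several mice, and p-values therefore rest on variation from pool to pool.

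Cells repair their DNA by routes that differ in the lesion and in the stage of the cell cycle. Homologous recombination copies the sister chromatid and therefore works in cells that have replicated their DNA, and the Fanconi proteins hand crosslinked DNA to it during replication. End joining ligates broken ends at any stage, mismatch repair corrects copying errors, and nucleotide excision repair cuts out bulky lesions such as those made by ultraviolet light. Many recombination and Fanconi genes are transcribed mainly in dividing cells, through E2F factors. Melanocyte stem cells rest between hair cycles, and loss of McSC after genotoxic stress is a known cause of hair greying.

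Stretches upstream of 5 members are shown to let motif words known from cell-cycle promoters be read in place. Brca1 and Brip1 had the smallest p-values of the members in adult McSC against melanoblasts. The other 3 genes hold an E2F word that lies wholly upstream of the gene start and outside annotated exons. Rad51c, Xrcc6 and Msh6 hold E2F words that do not, and these are not shown. The stretches are RefSeq sequences of build GRCm38.p6, on the strand of the gene, read 5′ to 3′. Capitals mark a CCAAT box in Brca1 and Brip1 (read as ATTGG where it lies on the opposite strand) and the E2F word TTTCCCGC or its reverse complement in the other 3 genes.
Brca1, chr11:101552017-101552061, minus strand: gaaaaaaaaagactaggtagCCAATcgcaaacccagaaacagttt
Brip1, chr11:86201203-86201312, minus strand: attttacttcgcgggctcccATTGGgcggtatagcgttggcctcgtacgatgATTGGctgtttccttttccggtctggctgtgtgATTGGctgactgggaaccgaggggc
Brca2, chr5:150522427-150522486, plus strand: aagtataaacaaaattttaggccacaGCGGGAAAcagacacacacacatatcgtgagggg
Chek2, chr5:110839805-110839864, plus strand: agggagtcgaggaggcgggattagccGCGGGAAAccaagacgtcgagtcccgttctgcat
Bard1, chr1:71103148-71103207, minus strand: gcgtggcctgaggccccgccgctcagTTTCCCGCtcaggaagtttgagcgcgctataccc

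A window from 250 bases before to 50 bases after the gene start was held for 30 of the 37 members. Rad54l, Lig4 and Rad51c had 2 windows each, and a member was counted if any of its windows matched. Both strands were searched for the E2F words TTTGGCGC, TTTGCCGC, TTTCGCGC and TTTCCCGC. Any of them occurred in 6 of the 30 members (20%), namely Bard1, Chek2, Brca2, Rad51c, Xrcc6 and Msh6. The same words occurred in 742 of 32544 distinct RefSeq windows of that length (2.28%). These were counted window by window and not gene by gene, and were not matched to the members in base composition or gene type. The 2 shares are therefore not quite alike, and their difference was not tested. In 26 of the 30 members the bases after the gene start were found in an annotated transcript of the gene. CCAAT occurred in 19 of the 30 members (63.3%) and in 37.4% of all windows. TTTGAA, the core of the cell cycle homology region of late cell-cycle genes, occurred in the window of Bard1 only, against 17.8% of all windows. Brip1 held 3 CCAAT boxes within 119 bases of its start and Brca1 held 1. Of the members with a window, 11 fell in adult McSC under both scalings described below. Among these 11, Brca2 alone held an E2F word (9.09%) and 5 held a CCAAT box (45.5%). Of the 19 other members with a window, 5 held an E2F word (26.3%) and 14 a CCAAT box (73.7%). Both words were thus less frequent among the members that fell under both scalings, a difference that was not tested. These matches describe letters in a window, and no binding was measured.

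The libraries held 12594770 to 33710117 counts, the fewest in the aged McSC. Mitochondrial ribosomal RNA took 32.6% to 37.6% of counts in melanoblasts, 21.9% to 33.6% in adult McSC and 21.5% to 24.6% in aged McSC, and its part in the results was not tested. Levels are given as CPM, read counts set relative to the library total, after scaling by the trimmed mean of M-values (TMM). Melanocyte lineage genes were high in every library, with summed levels of 10 markers between 14482 and 26271 CPM in melanoblasts, 4480 and 10930 CPM in adult McSC, and 7487 and 8998 CPM in aged McSC, and Dct, the melanin enzyme used as a lineage marker, the most abundant. Of these 10 markers 8 fell in adult McSC. Unless said otherwise, rises and falls in this paragraph are from the edgeR test against melanoblasts described below, with TMM factors over all genes. It called 18.3% of all genes lower and 15.1% higher. Markers of other skin cells were also detected, and none of them was at 0 in every library. Of 15 epithelial markers 14 rose in adult McSC and Cdh1, the most abundant, fell. Of 9 Schwann cell markers, led in level by Pmp22, 5 rose. Their sum was 943 to 1497 CPM in adult McSC, 463 to 643 CPM in melanoblasts and 461 to 621 CPM in aged McSC. Under the second scaling described below, 7 lineage markers fell, and 14 epithelial and 9 Schwann cell markers rose. That scaling called 5.68% of all genes lower and 34.1% higher. Fibroblast markers, led by Col3a1, summed to 590 to 2144 CPM in melanoblasts, 488 to 958 CPM in adult McSC and 131 to 247 CPM in aged McSC. Of 10 endothelial markers, led by Pecam1, 5 rose, and 8 under the second scaling. Their sum was 59.2 to 104 CPM in melanoblasts, 90.3 to 310 CPM in adult McSC and 71.5 to 80 CPM in aged McSC. The 310 CPM was adult replicate 3. Of 12 macrophage markers, led by Cd68, 4 rose. Their sum was 27.9 to 43.6, 43.1 to 62.9 and 60.4 to 78.7 CPM in the same order of groups. For T and NK cell markers, led by Cd4, it was 6.31 to 12.4, 9.45 to 20.5 and 16.6 to 25.8 CPM. Mast cells also carry KIT but also CD45, and their 10 markers summed to 34.3 CPM at most, with Cpa3 the most abundant. The part of these cells in the repair gene values was not tested. In bulk samples fewer cells of a type and less RNA per cell cannot be told apart. On the first principal component melanoblast replicate 3 was the melanoblast library nearest to the McSC and adult replicate 2 the McSC library nearest to the melanoblasts; counts without both are given below.

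Adult McSC were compared with melanoblasts to ask how repair genes differ between dividing neonatal precursors and resting stem cells. In edgeR's quasi-likelihood test, with Benjamini-Hochberg adjustment over 31961 genes and a threshold of 0.05, 26 of the 37 members fell in adult McSC, 1 rose and 10 did not pass. Of all genes tested, 18.3% were called lower and 15.1% higher. Among the 10951 genes within the members' own range of abundance 39.8% were called lower. The members' median log2 fold change was -1.03, against 0.39 over all genes tested and -0.47 over genes in that range. In 27 members every adult library lay below every melanoblast library, which held for 19.8% of all genes. Without melanoblast replicate 3 and adult replicate 2, 30 members fell and 1 rose. This setting was not planned, and it removes the libraries that lay nearest to the other group. Leaving them out tends to widen the difference by construction, so this count is no independent check.

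How many members fell depended on the scaling. Scaling factors taken only from abundant genes, those with a mean log2 CPM above 5, moved the median of all genes from 0.39 to 1.19 on the log2 scale. With those factors 12 members fell and 2 rose, where 5.68% of all genes were called lower and 34.1% higher. The share of calls that were higher went from 45.3% to 85.7%. New factors shift all genes by about the same amount, so the members' place among other genes is nearly fixed by construction: their median minus that of genes in their abundance range was -0.56 with the first factors and -0.60 with the second. The 12 members that fell under both were Chek1, Brca1, Brca2, Brip1, Rad51ap1, Xrcc3, Blm, Exo1, Fanci, Lig4, Parp1 and Polh. Where "fell" is written of any other member below, it holds for the TMM factors over all genes only.

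**Figure D1:**
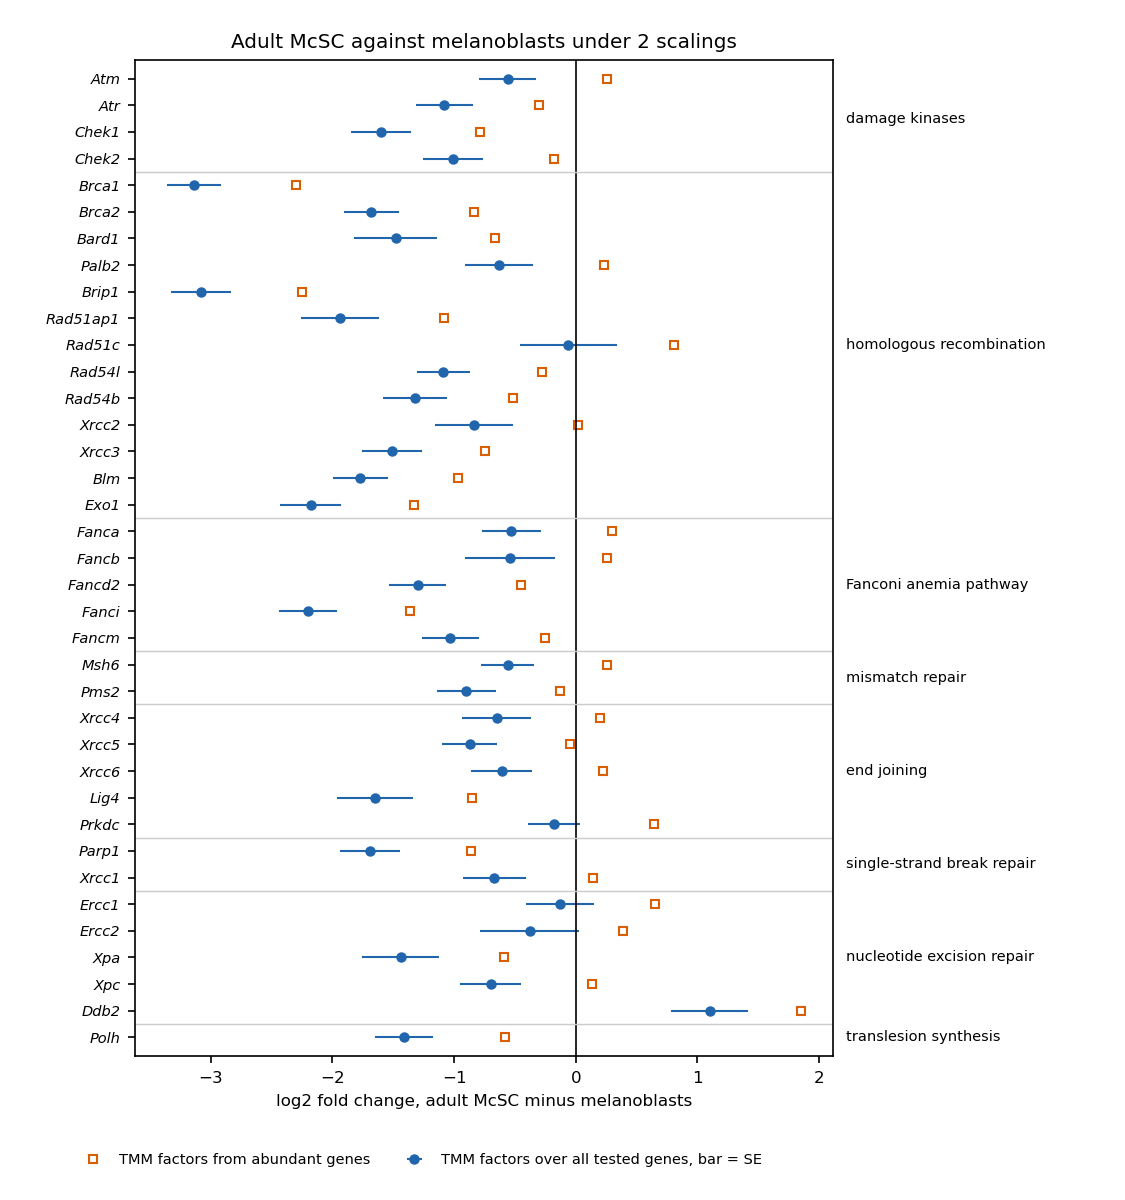
Log2 fold change of each member, adult McSC minus melanoblasts (horizontal axis), with the standard error as a bar for TMM factors over all tested genes (filled circles) and the value with factors from abundant genes (open squares). The squares lie to the right of the circles throughout, and Brca1 (-3.14 and -2.30) and Brip1 (-3.08 and -2.25) lie farthest left under both.

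Among the damage kinases, Atr and Chek1, which answer stalled replication forks, and Chek2, which relays the signal of broken DNA, fell in adult McSC. Chek1 stood at 19.5, 19.2 and 19.3 CPM in the 3 melanoblast libraries, at 6.66, 7.48, 5.90 and 5.49 CPM in the 4 adult libraries, and at 7.44 and 8.39 CPM in the 2 aged ones. The melanoblast values were close together and every McSC library was under 9 CPM, a 3.03-fold difference for adult cells (log2 fold change -1.60, SE 0.247, adjusted p = 2.32e-05 in edgeR). Atr stood at 91.9, 95.5 and 90.1 CPM in melanoblasts and at 30.9, 59.9, 38.3 and 46 CPM in adult McSC (-1.08, SE 0.234, adjusted p = 9.34e-04 in edgeR). The aged libraries held 27.5 and 41.8 CPM of Atr, within the adult range except for the lower value. Chek2 stood at 17.8, 20.7 and 15.7 CPM in melanoblasts, 8.10, 8.60, 8.13 and 11.1 CPM in adult McSC and 12.7 and 9.49 CPM in aged McSC. The adult decrease of Chek2 was 2.01-fold (-1.01, adjusted p = 0.00284 in edgeR), and its melanoblast and McSC values did not overlap. Atm, the kinase that senses double-strand breaks, did not pass. It stood at 133, 148 and 91.3 CPM in melanoblasts, 63.4, 114, 78.4 and 81.3 CPM in adult McSC and 59.1 and 70.4 CPM in aged McSC, so that adult replicate 2 lay above melanoblast replicate 3 (-0.56, SE 0.232, adjusted p = 0.065 in edgeR).

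Homologous recombination was the role with the largest median decrease among the 5 roles of 4 or more members, -1.51. Of its 13 members 11 fell, 7 of them under both scalings. In the members' abundance range 39.8% of genes were called lower, and with factors from abundant genes 5.68% of all genes were. Brca1, the ubiquitin ligase that licenses resection of a broken end, had the largest decrease of all 37 members. Its level was 82.8, 95.1 and 65 CPM in melanoblasts, 9.35, 9.92, 9.20 and 8.16 CPM in adult McSC, and 8.89 and 8.33 CPM in aged McSC. Every McSC library was under 10 CPM and every melanoblast library at or above 65 CPM. The means were 81.0 ± 15.1 CPM (SD, n = 3) and 9.16 ± 0.735 CPM (SD, n = 4), an 8.84-fold decrease (-3.14, SE 0.223, adjusted p = 1.27e-10 in edgeR). Brip1, a helicase that binds BRCA1, followed it closely, at 35.8, 37.2 and 31.1 CPM in melanoblasts and 4.05, 4.02, 4.95 and 3.37 CPM in adult McSC. Its decrease was 8.46-fold (-3.08, SE 0.248, adjusted p = 1.03e-09 in edgeR), and its aged values of 4.45 and 5.90 CPM lay beside the adult ones. Exo1, the exonuclease of long resection and of mismatch repair, stood at 28.4, 26.2 and 20.4 CPM in melanoblasts and 5.69, 4.83, 6.07 and 5.41 CPM in adult McSC. That is a 4.54-fold decrease (-2.18, adjusted p = 3.91e-07 in edgeR), and the aged libraries held 5.58 and 7.70 CPM.

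The other recombination members that fell did so by less than Exo1. Rad51ap1, which promotes strand pairing, fell from 12.8 ± 2.38 to 3.33 ± 0.965 CPM (SD, n = 3 and n = 4), and the helicase Blm from 63.4 ± 9.03 to 18.5 ± 3.67 CPM. Brca2, a mediator of strand exchange, fell from 62.0 ± 10.4 to 19.4 ± 2.47 CPM (-1.68, adjusted p = 4.67e-06 in edgeR). Among 3 further recombination genes, Xrcc3 fell by 1.51 on the log2 scale, Xrcc2 had a value of -0.84 with adjusted p = 0.0463 in edgeR, and Rad51c was unresolved. Xrcc2 no longer passed in 12 of 18 alternatives and reversed in 1. Rad51c stood at 8.03, 2.76 and 3.76 CPM in melanoblasts and 5.53, 3.29, 4.99 and 4.75 CPM in adult McSC, values that overlapped throughout (-0.06, SE 0.398). Bard1, the partner of BRCA1, fell by 1.48, the DNA translocases Rad54b and Rad54l by 1.32 and 1.09. Exons of Rad54b share 35.8% of their length with Fsbp on the same strand and those of Rad54l share 15.4% with Lrrc41 on the opposite strand, so both values are uncertain. Palb2, the bridge between BRCA1 and BRCA2, did not pass. Its values were 13, 11.4 and 7.58 CPM in melanoblasts, 6.82, 6.07, 7.39 and 7.20 CPM in adult McSC and 7.52 and 7.47 CPM in aged McSC, so that melanoblast replicate 3 lay beside the McSC (-0.63, adjusted p = 0.0797 in edgeR). Brca1 and Palb2, which act in the same chain, thus differed by 8.84-fold and 1.55-fold between the same libraries; whether those changes differ from each other was not tested.

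**Figure D2:**
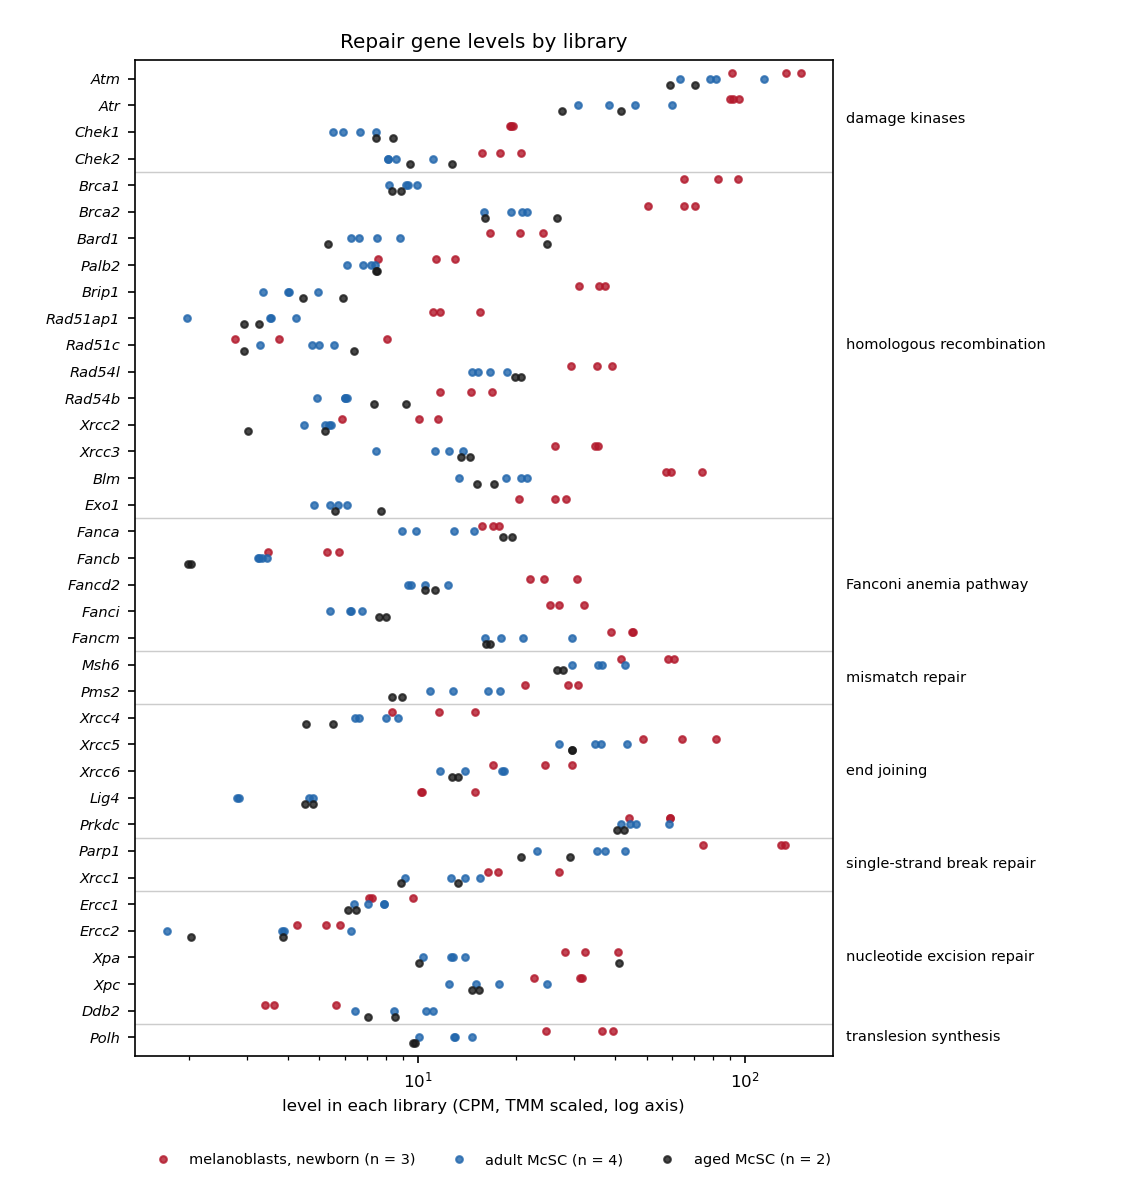
Level of each member in each of the 9 libraries, in TMM-scaled CPM on a log axis, with melanoblasts in red, adult McSC in blue and aged McSC in black. The red points of Brca1, Brip1, Exo1 and Fanci stand apart from all blue and black ones, Ddb2 is the 1 member whose blue points all lie right of the red, and single black points of Bard1 (24.9 CPM) and Xpa (41.1 CPM) lie at the right end of the red.

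Of the Fanconi members 3 of 5 fell, where 39.8% of genes in the members' abundance range were called lower. Fanci and Fancd2 form the clamp that is ubiquitinated at a crosslink, and Fancm is the translocase that recruits the core complex. These 3 fell, whereas Fanca and Fancb, of the core complex, did not pass. Fanci stood at 32.1, 27.1 and 25.4 CPM in melanoblasts, 6.74, 6.24, 6.19 and 5.41 CPM in adult McSC and 7.60 and 7.99 CPM in aged McSC. Its decrease was 4.58-fold (-2.20, SE 0.236, adjusted p = 1.38e-07 in edgeR), and 15.9% of its exon length is shared with Polg on the opposite strand, which itself had a value of -1.01. Fancd2 stood at 30.6, 24.3 and 22 CPM in melanoblasts, 12.4, 9.32, 9.53 and 10.5 CPM in adult McSC and 10.5 and 11.3 CPM in aged McSC. The clamp partners thus both fell, Fancd2 by 2.46-fold (-1.30, adjusted p = 1.32e-04 in edgeR). Fancm stood at 39, 45.1 and 45.6 CPM in melanoblasts, 21, 29.7, 18 and 16 CPM in adult McSC and 16.6 and 16.2 CPM in aged McSC (-1.03, adjusted p = 0.00135 in edgeR). Fanca stood at 15.7, 17 and 17.7 CPM in melanoblasts and 14.9, 9.88, 8.96 and 12.9 CPM in adult McSC (-0.53, adjusted p = 0.091 in edgeR). The aged libraries were the highest for Fanca, at 18.2 and 19.4 CPM, and 10.5% of its exon length is shared with Zfp276 on the opposite strand. Fancb was low in every library, from 1.98 to 5.73 CPM.

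In mismatch repair, Pms2, the endonuclease subunit, and Msh6, the subunit that reads base mismatches, both passed with TMM factors. Pms2 stood at 21.3, 28.8 and 30.8 CPM in melanoblasts, 12.8, 17.8, 10.9 and 16.4 CPM in adult McSC and 8.37 and 8.97 CPM in aged McSC (-0.90, adjusted p = 0.00577 in edgeR). Msh6 stood at 58.1, 60.6 and 41.7 CPM in melanoblasts, 29.5, 42.9, 35.5 and 36.6 CPM in adult McSC and 27.8 and 26.6 CPM in aged McSC. Adult and melanoblast values of Msh6 overlapped, and its value of -0.56 was close to the threshold (adjusted p = 0.0472 in edgeR), which it missed in 13 of 18 alternatives and reversed to 0.26 with factors from abundant genes.

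In end joining 2 of 5 members fell, close to the 39.8% of genes in the members' abundance range that were called lower. Lig4, the ligase that seals the ends, stood at 10.2, 15 and 10.3 CPM in melanoblasts, 2.81, 4.79, 2.85 and 4.66 CPM in adult McSC and 4.53 and 4.80 CPM in aged McSC. It fell 3.13-fold (-1.65, SE 0.314, adjusted p = 2.51e-04 in edgeR) and was the 1 end-joining member that fell under both scalings. Xrcc5, the large subunit of the Ku ring that caps broken ends, stood at 64, 81.6 and 48.9 CPM in melanoblasts, 27.1, 43.5, 36.4 and 34.9 CPM in adult McSC and 29.5 CPM in both aged libraries (-0.87, adjusted p = 0.00453 in edgeR). Its partner subunit Xrcc6 stood at 24.5, 29.7 and 17 CPM in melanoblasts, 11.7, 18.3, 13.9 and 18.1 CPM in adult McSC and 12.7 and 13.3 CPM in aged McSC, and did not pass (-0.61, adjusted p = 0.059 in edgeR). Prkdc, the kinase that joins Ku, was nearly level. It stood at 59.1, 59 and 44.3 CPM in melanoblasts, 41.9, 58.6, 44.4 and 46.5 CPM in adult McSC and 40.6 and 42.8 CPM in aged McSC (-0.18, SE 0.214, adjusted p = 0.533 in edgeR). With factors from abundant genes Prkdc was higher in adult McSC (0.64, adjusted p = 0.0016 in edgeR), so no direction can be given for it. Xrcc4, the partner of LIG4, had a value of -0.65 and did not pass.

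Of the 2 genes of single-strand break repair, Parp1, the enzyme that marks nicked DNA with poly(ADP-ribose), was among the most abundant members and fell. It stood at 132, 129 and 74.4 CPM in melanoblasts, 23.1, 43.1, 37.4 and 35.3 CPM in adult McSC and 29.1 and 20.7 CPM in aged McSC. The adult decrease was 3.23-fold (-1.69, SE 0.249, adjusted p = 1.28e-05 in edgeR), and melanoblast replicate 3 lay nearest to the McSC. Xrcc1, the scaffold that PARP1 recruits, stood at 16.4, 27 and 17.6 CPM in melanoblasts, 9.12, 13.9, 12.6 and 15.5 CPM in adult McSC and 13.3 and 8.91 CPM in aged McSC (-0.67, adjusted p = 0.0494 in edgeR). It no longer passed in 14 of 18 alternatives and reversed in 1. Polh, the polymerase that copies past ultraviolet lesions, stood at 36.6, 39.4 and 24.7 CPM in melanoblasts, 10.1, 14.6, 13 and 12.9 CPM in adult McSC and 9.70 and 9.84 CPM in aged McSC (-1.41, adjusted p = 6.22e-05 in edgeR).

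Nucleotide excision repair held the member that rose. Ddb2, the sensor of ultraviolet lesions in chromatin, stood at 3.42, 3.65 and 5.62 CPM in melanoblasts, 6.43, 10.6, 11.1 and 8.45 CPM in adult McSC and 7.04 and 8.51 CPM in aged McSC. Every McSC library lay above every melanoblast library, a 2.15-fold difference for adult cells (1.10, SE 0.317, adjusted p = 0.00936 in edgeR), and the sign was the same under both scalings (1.85 with factors from abundant genes). Of its exon length 23.8% is shared with Acp2 on the opposite strand; Acp2 moved the other way, from 39.9 to 21.1 CPM. Xpa, the scaffold of the incision complex, stood at 41, 32.5 and 28.1 CPM in melanoblasts and 12.8, 10.4, 12.6 and 13.9 CPM in adult McSC (-1.44, adjusted p = 0.0011 in edgeR). Xpc, the general lesion sensor, stood at 31.3, 31.7 and 22.7 CPM in melanoblasts, 12.5, 15.1, 17.7 and 24.8 CPM in adult McSC and 15.4 and 14.6 CPM in aged McSC. Adult replicate 4 overlapped the melanoblasts for Xpc (-0.70, adjusted p = 0.0313 in edgeR), which no longer passed in 11 of 18 alternatives and reversed in 1. The incision nuclease subunit Ercc1 was level, at 7.09, 7.25 and 9.69 CPM in melanoblasts, 7.05, 7.91, 7.88 and 6.37 CPM in adult McSC and 6.47 and 6.13 CPM in aged McSC (-0.13, SE 0.283). The helicase Ercc2 was low in every library, between 1.71 and 6.24 CPM, and did not pass (-0.38). Shared exon length makes further values uncertain, since the strand used in counting is not given in the sources used here: Ercc2 shares 24.6% with Gm26852 and 17.8% with Klc3, Xrcc6 shares 7.68% with Desi1 and Xpa 4.07% with Ncbp1, all on opposite strands.

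Ratios between roles within a library do not depend on the scaling factor. The summed CPM of the 18 recombination and Fanconi members was divided by that of the 5 end-joining members. The ratio was 3.30, 2.68 and 3.69 in melanoblasts, 1.89, 1.35, 1.56 and 1.48 in adult McSC and 1.87 and 2.19 in aged McSC. No McSC library reached the melanoblast range. The same sum over the 5 nucleotide excision members gave 6.36, 6.63 and 6.77 in melanoblasts, 4.20, 3.59, 3.13 and 2.84 in adult McSC and 4.00 and 2.91 in aged McSC. On the log2 scale the adult mean minus the melanoblast mean was -1.04 against end joining and -0.95 against nucleotide excision, where the larger SD of the 2 groups was 0.24 and 0.25. As a mean of log values, which gives each gene the same weight, the first difference was -0.65; without the most abundant member of each role the second was -1.40. These ratios are descriptions and were given no test.

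**Figure D3:**
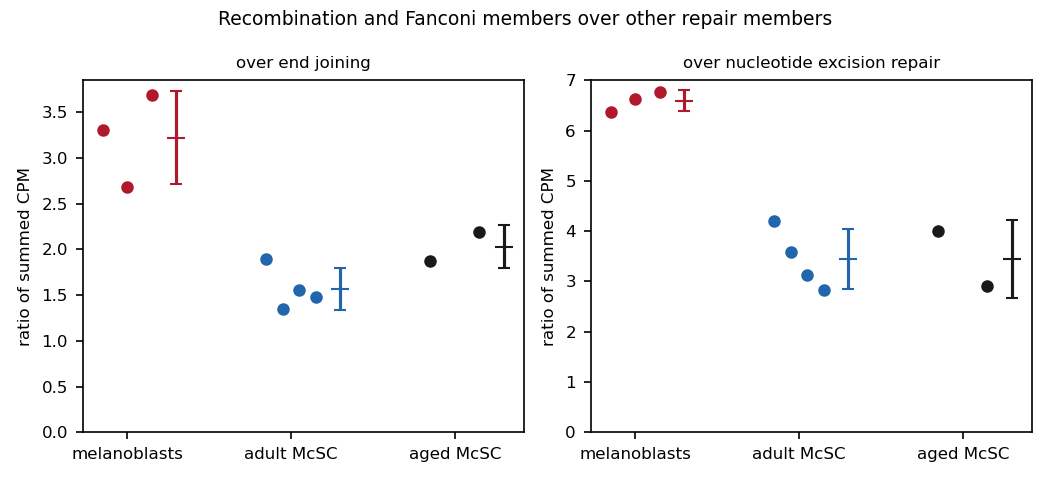
Ratio of the summed CPM of recombination and Fanconi members to that of end joining members and to that of nucleotide excision repair members, for each library (points) with group means and SD as error bars. The melanoblast ratios of 2.68 to 3.69 and 6.36 to 6.77 lie above all McSC ratios, which reach 2.19 and 4.20.

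To compare levels between genes, CPM was divided by the length of all annotated exons in kb. The highest members per length were Xrcc5 and Parp1 in melanoblasts, at 25.4 and 21.2 CPM per kb, and Xrcc5 and Msh6 in adult McSC, at 13.9 and 8.32 CPM per kb. Brca1 went from the 7th place of 37 in melanoblasts to the 27th in adult McSC, and Ddb2 from the 34th to the 9th. Brip1 was last in adult McSC, at 0.550 CPM per kb, below Exo1 (0.653), Rad51ap1 (0.691) and Lig4 (0.726). Olfactory and vomeronasal receptor genes, which have no known use in these cells, served as a measure of background. Their 1429 genes pooled gave 0.0724 CPM per kb in melanoblasts, 0.178 in adult McSC and 0.201 in aged McSC. The adult levels of the members were 3.09 to 78.1 times that background with a median of 10, against 15.3 to 351 times with a median of 56.8 in melanoblasts. Single receptor genes reached the lowest members: their 95th percentile was 0.576 CPM per kb in adult McSC, above Brip1, and 0.731 in aged McSC, above Rad51ap1 (0.647), Fancb (0.672), Brip1 (0.694) and Ercc2 (0.708). The part of that background in the adult values of Brip1, Exo1, Rad51ap1 and Lig4 was not tested. By the length of the longest protein-coding transcript, an alternative added after seeing the data, Parp1 and Xpa led in melanoblasts, Brca1 went from the 8th to the 29th place and Ddb2 from the 34th to the 14th, and the lowest member in adult McSC stood 3.15 times over the background.

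**Figure D4:**
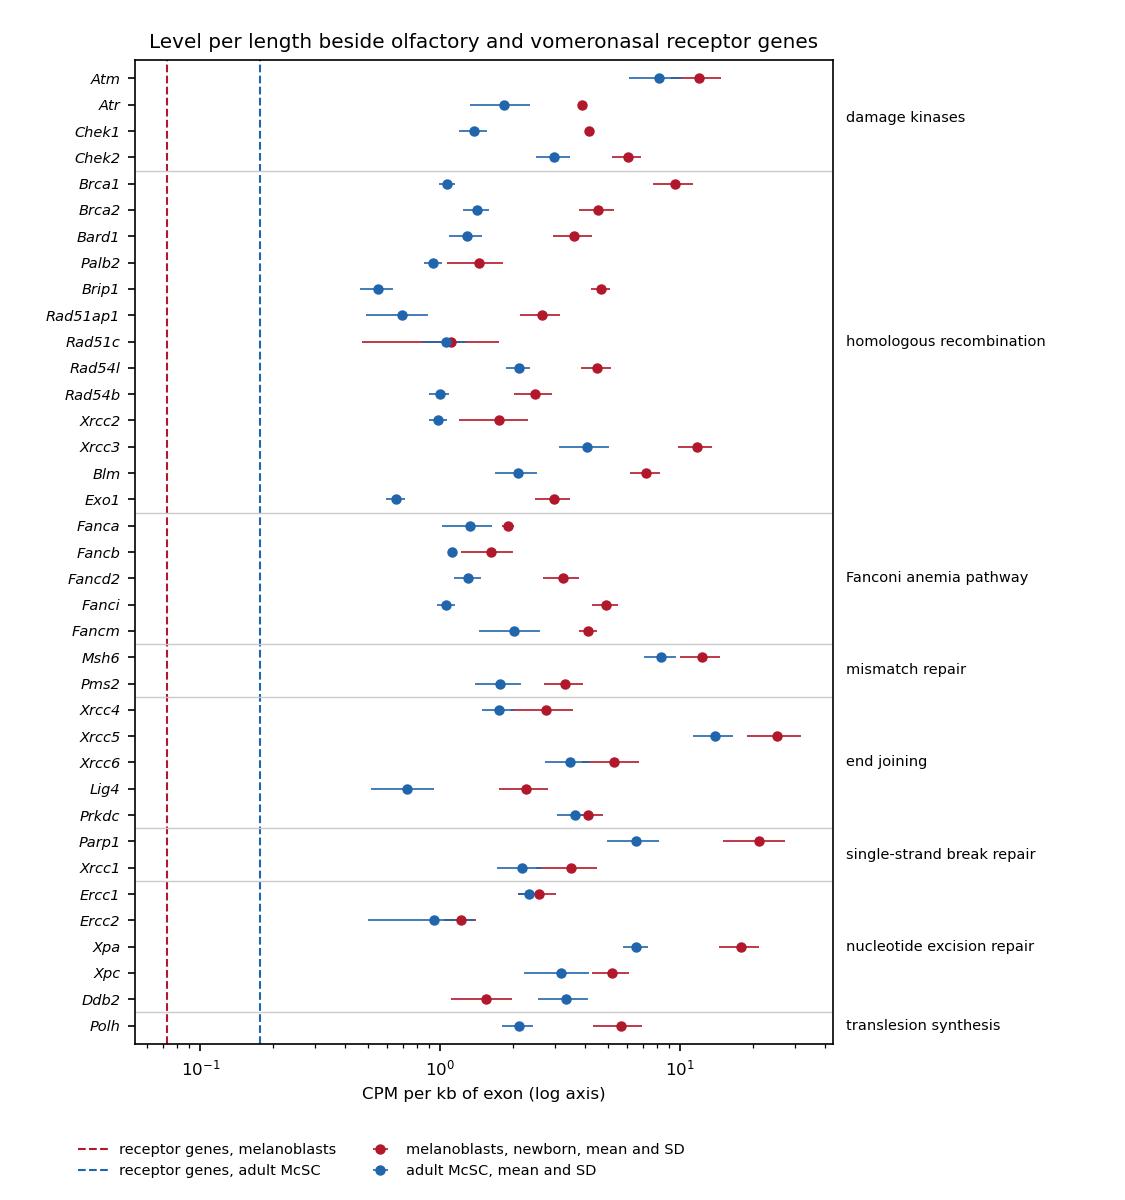
Mean level of each member per kb of exon (log axis) with SD, in melanoblasts (red) and adult McSC (blue), beside the pooled level of olfactory and vomeronasal receptor genes (dashed lines at 0.0724 and 0.178 CPM per kb). In adult McSC Brip1 (0.550), Exo1 (0.653) and Rad51ap1 (0.691) lie nearest to the dashed line.

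Of 134 further repair genes in 8 lists, 78 fell, 1 rose and the remainder did not pass or, for Fen1, was not tested. Of all genes tested, 18.3% were called lower and 15.1% higher, and 39.8% of genes in the members' abundance range were called lower. The counts per list below are to be read beside these shares. The genes said to lead one of these lists had its smallest p-values. The median log2 fold change was -0.78, less negative than the -1.03 of the members. With factors from abundant genes 24 fell and 17 rose, where 5.68% of all genes were called lower and 34.1% higher. The 24 were 7 of recombination and break signalling, 1 Fanconi, 6 checkpoint, 1 mismatch, 2 end joining, 3 base excision, 3 nucleotide excision and 1 translesion. Wdr48, Rfc1, Aplf and Rev3l, named below, did not pass with those factors. All following counts by list hold for TMM factors over all genes only. In recombination and break signalling 20 of 34 fell, among them the resolvase Gen1, from 26 to 3.90 CPM. In the Fanconi list 7 of 13 fell, led by Usp1 (-1.63) and its partner Wdr48 (-1.12), which remove ubiquitin from the clamp. Of 12 checkpoint genes 9 fell, led by Clspn (-2.82) and Topbp1 (-2.44), which activate CHEK1 and ATR. Of 12 mismatch genes 9 fell, led by Lig1 (-2.26) and Rfc1 (-1.15), which also serve replication. In end joining 3 of 10 fell: Polq, the polymerase of the microhomology route (-2.19), Tdp1 (-1.38) and Aplf (-0.86), the last named after its value was seen. Of 18 base excision genes 8 fell, led by the glycosylases Neil3 and Tdg, and 1 rose. Neil3, which unhooks crosslinks at forks, fell from 77.1 ± 3.50 to 3.97 ± 1.36 CPM (-4.28, adjusted p = 1.44e-11 in edgeR), further than any of the 37 members. The 1 that rose was Parp3, from 1.63 to 6.35 CPM, also named after its value was seen. Of 19 nucleotide excision genes 13 fell, led by Gtf2h1 (-2.35) and Ddb1 (-1.52), the partner of DDB2. Thus Ddb2 and Ddb1, subunits of the same complex, moved in opposite directions, also with factors from abundant genes (1.85 and -0.70). Of 16 translesion genes 9 fell, led by Rad18 (-1.95) and Rev3l (-1.17).

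Cell division genes were compared in the same fit. All 17 fell in adult McSC, with a median of -4.07, where 18.3% of all genes tested were called lower. With factors from abundant genes 15 of the 17 fell, with a median of -3.22, where 5.68% of all genes were called lower. The medians of the 37 members were -1.03 and -0.25. Summed levels of the 17 were 3181 to 4670 CPM in melanoblasts, 183 to 225 CPM in adult McSC and 179 to 206 CPM in aged McSC. Mki67, the proliferation antigen, went from 2111 ± 351 to 82.6 ± 12.6 CPM (SD, n = 3 and n = 4). Ube2c (-5.22) and Kif11 (-4.65), which serve mitosis, had the smallest p-values of that list. The part of dividing cells in the repair gene values was not tested.

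Aged McSC were compared with adult McSC to ask what changes with age. None of the 37 members passed in edgeR, where 97 of 31961 genes, 0.303%, did. That number of genes was 13 without aged replicate 2, 46 without adult replicate 1, 49 without adult replicate 3 and 303 without melanoblast replicate 3. At an unadjusted p under 0.05 there were 4 members and 3275 genes. DESeq2 and limma voom also called 0 members. The log2 values ran from -0.74 to 1.04 with a median of -0.20, against -0.22 over genes of the same abundance range. In 10 members the adult and aged libraries did not overlap, which held for 27.7% of all genes tested. None of the 134 further repair genes and 17 division genes passed in edgeR; 15 and 2 of them had an unadjusted p under 0.05. With 2 aged libraries a value had to be large to pass, and the standard errors of the members, 0.245 to 0.476, show what could be resolved.

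The smallest p-values belonged to Xpa, Bard1 and Fanca. Xpa stood at 10.1 and 41.1 CPM in the 2 aged libraries, against 10.4 to 13.9 CPM in adult McSC (1.04, SE 0.348, adjusted p = 0.305 in edgeR). Bard1 stood at 5.30 and 24.9 CPM, against 6.27 to 8.81 CPM in adult McSC (1.04, SE 0.38, adjusted p = 0.365 in edgeR). In both genes aged replicate 1 lay below every adult library and aged replicate 2 above every melanoblast library. Without aged replicate 2 the values were -0.27 and -0.42. Without aged replicate 1 they were 1.69 and 1.74, and both then passed, in a fit that assumes the lone aged library to vary like the other groups. These 2 values therefore rest on 1 pool. In Fanca both aged libraries lay above all adult ones, 18.2 and 19.4 against 8.96 to 14.9 CPM (0.69, SE 0.268, adjusted p = 0.403 in edgeR). Pms2 was the reverse, with 8.37 and 8.97 CPM in aged McSC below the adult range of 10.9 to 17.8 CPM (-0.74, adjusted p = 0.405 in edgeR). Brca1 differed by -0.09 (SE 0.252), so that a change of the size seen between melanoblasts and adult cells lay far outside its error.

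**Figure D5:**
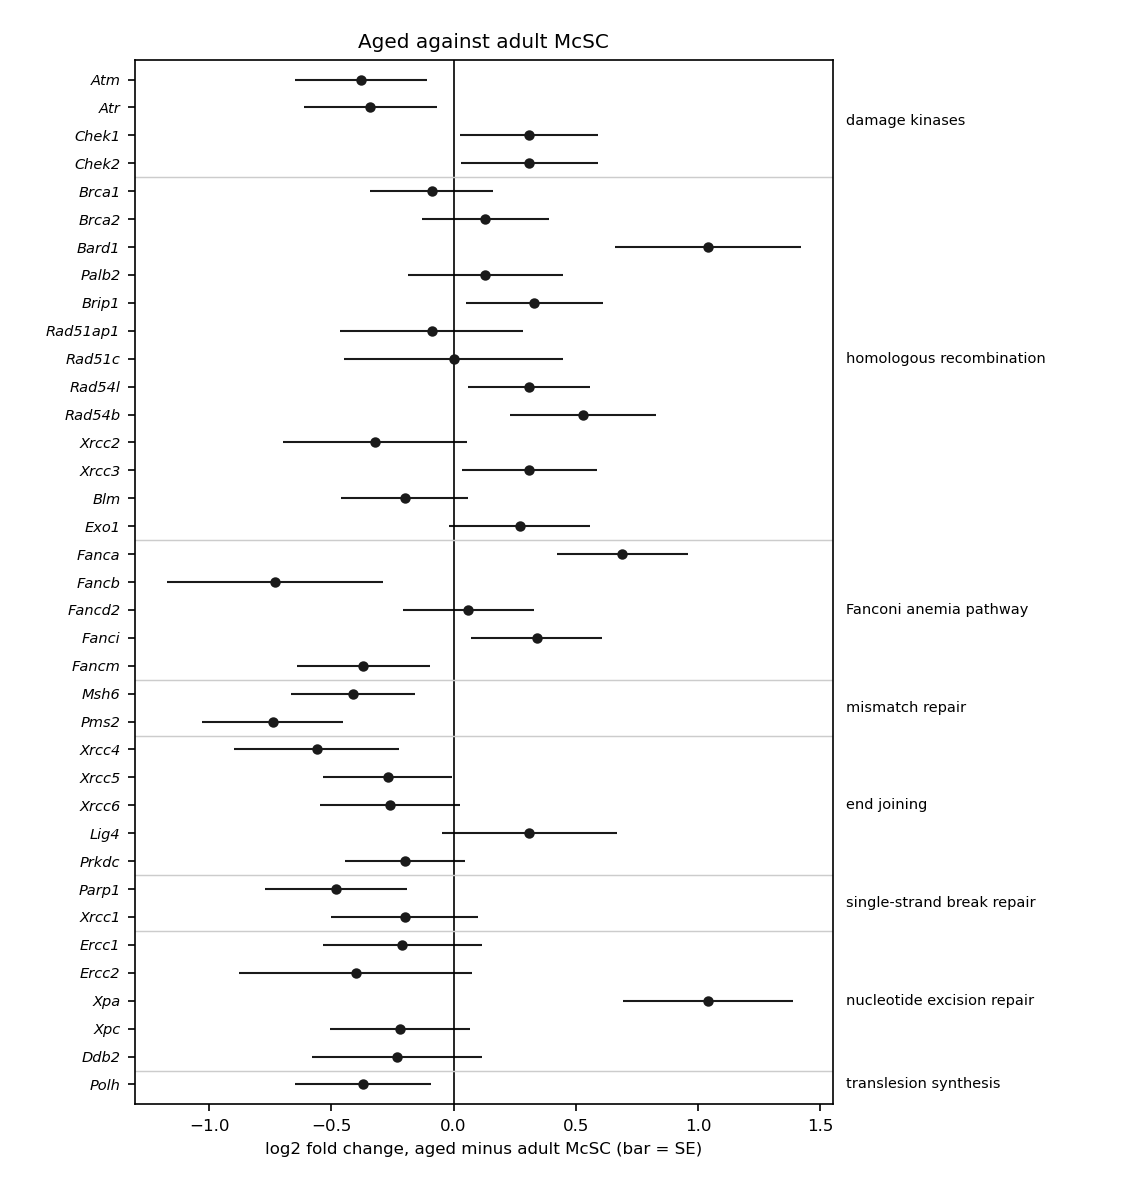
Log2 fold change of each member, aged minus adult McSC (horizontal axis), with the standard error as a bar. Xpa and Bard1 lie farthest right, at 1.04, Pms2 lies farthest left, at -0.74, and no member passed.

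Aged McSC were also compared with melanoblasts; this comparison shares its melanoblast libraries with that of adult McSC, and its values are set beside the others only. With TMM factors over all genes 26 members fell and 0 rose (15 fell without aged replicate 1), where 20.3% of all genes were called lower and 20.4% higher. The members' median was -1.16, against 0.70 over all genes tested and -0.67 over genes in the members' abundance range. Brca1 had a value of -3.23 (SE 0.296), Brip1 of -2.75 (SE 0.321) and Parp1 of -2.17 (SE 0.325). Ddb2 was 0.87 higher and missed the threshold (adjusted p = 0.0586 in edgeR); it was the 1 member higher at an unadjusted p under 0.05, and 1 member rose in limma and 0 in DESeq2. With factors from abundant genes, which moved the all-gene median from 0.70 to 1.82 and called 5.13% of all genes lower and 49.4% higher, 6 members fell (Brca1, Brip1, Blm, Fanci, Parp1 and Polh) and 3 rose (Fanca at 1.32, Prkdc at 0.81 and Ddb2 at 1.99).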

How the data were processed

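The authors deposited raw read counts per Ensembl gene, 1 table per library, with no header. Per the labels' protocols, 20 ng of RNA with an integrity number above 8.5 was amplified with the Ovation system before library preparation with 10 PCR cycles, and paired reads of 126 bases were sequenced; amplification can distort relative levels. Per the submitters' processing notes, the tools were STAR 2.5.2, Trimmomatic 0.36, SAMtools 1.9, FastQC 0.11.8 and DESeq2 1.22.2, with build mm10. How reads were counted, by which annotation and on which strand, is not given in the sources used here. Symbols, positions and exon lengths came from GENCODE annotation of GRCm38, which held 49326 of the 49671 identifiers; the 345 others held 0.047% of counts.

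Counts were fitted with edgeR 4.0.16 (R 4.3.3) in a group-means model over all 9 libraries, with filterByExpr (31961 genes kept), TMM factors, robust quasi-likelihood tests and Benjamini-Hochberg adjustment at 0.05. The code was tested on simulated counts. Fold changes are edgeR's log2 values. Their standard errors were derived from the same fit, as the absolute log2 value divided by the square root of the F statistic. Alternatives were RLE factors, TMM factors from abundant genes, voom with quality weights in limma 3.58.1, DESeq2 1.42.0, no filter, a filter of at least 5 CPM in at least 2 libraries, the replicate number as a block, only the groups compared, and each library left out. Leaving out both melanoblast replicate 3 and adult replicate 2 was an unplanned addition. The members and all lists were chosen with earlier results of these data known. Values in every library are given for up to 3 members per role with the smallest p in adult McSC against melanoblasts, the most abundant member that did not pass, and the 3 with the smallest p with age; up to 2 genes are named per further list, and Mki67, except for 1 that is not reported here. Depths were 12594770 to 33710117 counts, and on the TMM scale 3 counts correspond to 0.117 to 0.187 CPM. Promoter windows are RefSeq's, and 7 members were matched to none.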

Additional observations from a re-analysis of the deposited data

Results flagged for a closer look

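In 39 sets of 4 adult values tested for a library far from the others (37 members and 2 role ratios), 2 were found, and chance gives about 1 in 20. Chek2 stood at 11.1 CPM in adult replicate 4 against 8.10 to 8.60 CPM in the other 3 adult libraries. Rad54b stood at 4.92 CPM in adult replicate 2 against 5.98 to 6.08 CPM in the others. Both members fell in adult McSC whichever adult library was left out.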

How the results depend on the processing

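Of the adult against melanoblast values of the 37 members, 562 kept their direction and side of the threshold under an alternative, 64 no longer passed, 14 came to pass and 25 changed sign. Factors from abundant genes gave 14 changed members (12 fell, 2 rose) and turned 14 signs: Atm 0.26, Palb2 0.23, Rad51c 0.81, Xrcc2 0.02, Fanca 0.30, Fancb 0.26, Msh6 0.26, Xrcc4 0.20, Xrcc6 0.22, Prkdc 0.64, Xrcc1 0.14, Ercc1 0.65, Ercc2 0.39 and Xpc 0.13. The stricter filter, which tests fewer genes, gave 6877 changed genes and turned Rad51c to 0.46, Prkdc to 0.31, Ercc1 to 0.33 and Ercc2 to 0.08. Rad51c was also 0.09 with no filter and 0.04 with only the groups compared, and ran from -0.34 to 0.51 with each library left out; Ercc1 ran from -0.21 to 0.03. Leaving out each library gave 22 to 31 changed members and 8056 to 14059 changed genes. The ratio to end joining ran from -1.16 to -0.93 and was -0.65 as a mean of logs; the ratio to nucleotide excision ran from -1.05 to -0.87 and was -1.40 without the most abundant member of each role. The cause of these differences was not tested.

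For aged against adult McSC, where 97 genes passed, 57 did with factors from abundant genes, 314 in DESeq2, 1416 in limma, 343 with no filter, 311 with only the 2 groups compared and 278 without both melanoblast replicate 3 and adult replicate 2. With each library left out it was 13 to 303, with 13 without aged replicate 2, 46 without adult replicate 1, 49 without adult replicate 3 and 303 without melanoblast replicate 3. The members that passed were 0 to 2, and 2 only without aged replicate 1, where the lone aged library is assumed to vary like the other groups. Xpa then ran from -0.27 to 1.69 and Bard1 from -0.42 to 1.74. The share of calls that were higher went from 17.5% to 56.1% with factors from abundant genes.

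For aged McSC against melanoblasts, 9 members changed with factors from abundant genes and 14 (7611 genes) under the stricter filter, with 15 to 28 with each library left out (7410 to 16292 genes, and 16859 without both melanoblast replicate 3 and adult replicate 2). Leaving out aged replicate 1 gave the lowest counts, 15 members and 7410 genes, and leaving out aged replicate 2 gave 8440 genes. The share of calls that were higher went from 50.1% to 90.6% with factors from abundant genes.

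With the replicate number as a block (replicate block), 24 members and 9035 genes changed in adult McSC against melanoblasts, 0 and 172 in aged against adult, and 24 and 12740 in aged against melanoblasts. Same-numbered libraries correlated between -0.08 and 0.202 in their deviations from the group means, and differently numbered ones between -0.236 and 0.285. Deviations within so small a group are tied to each other, so these values cannot decide whether the numbers mark a pairing. The fits other than the block treat the numbers as names of pools.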
